A study of Mus musculus with 4 samples.

Results

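The genes described here are 10 genes of the development of GnRH neurons, namely Gnrh1, Kiss1, Kiss1r, Prok2, Prokr2, Fezf1, Chd7, Hs6st1, Nsmf and Wdr11. They were chosen by name, and all 10 were found in the table of 33708 autosomal rows. The table was made from the frontonasal prominence (FNP), the tissue that forms the nose and snout, of 4 FVB/NJ mouse embryos at E10.5 and 29 somites. There were 2 wild-type embryos (Smchd1+/+, WT, 1 labelled female and 1 male) and 2 male embryos homozygous for a chemically induced missense allele of Smchd1 (Smchd1MommeD43/MommeD43, MD43). Another record of the study gives the second WT embryo as female, and in that case sex and genotype cannot be told apart. The WT and MD43 embryos numbered 2 came from the same mother, and those numbered 1 came from other mothers. SMCHD1 is a chromatin protein of gene silencing, and variants in its human gene are linked to Bosma arhinia microphthalmia syndrome, in which the nose is absent and the reproductive axis fails.

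GnRH neurons release the hormone that starts puberty. They arise in the olfactory placode, within the nasal part of the embryonic face, and migrate along olfactory and vomeronasal axons into the forebrain. In human Kallmann syndrome this migration fails, and patients lack both a sense of smell and the hormonal drive to the gonads. The 2 genotypes were compared to ask whether genes of this programme differ in level in the embryonic nose tissue that carries the altered SMCHD1.

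The values are the authors' log2 RPKM (reads per kilobase of transcript, scaled to library size), with 1 value per genotype for its 2 libraries. No spread between embryos, and therefore no test between genotypes, can be had from them. For each gene and genotype the counts of the 2 libraries could be recovered multiplied together, and reads below means the square root of this product, their geometric mean. Each error is the smallest standard error (SE) possible from counting at that number of reads. A difference is called beyond counting error where the 95% interval from this SE excludes 0. Variation between embryos is not in it. The depth recovered in the same way came to 22328791 reads in MD43 and 16055882 in WT, a ratio of 1.39. Smchd1 itself was at 3.30 log2 RPKM in MD43 and 3.31 in WT, a difference of -0.01 ± 0.02, and since the allele changes a single residue its mRNA level does not check the labels.

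The 10 genes fell into a group of 5 that was well expressed in the FNP and a group of 5 that was at or near the limit of detection. In WT the first group held Fezf1 at 18.1 RPKM, Chd7 at 15.9, Hs6st1 at 12.2, Nsmf at 9.15 and Wdr11 at 7.05. These levels were higher than those of 91.2% of all genes for Fezf1 and 80.5% for Wdr11. In the second group Prokr2 was at 0.185 RPKM, Gnrh1 at 0.168 and Prok2 at 0.113, while Kiss1r rested on 3 reads in all and Kiss1 on none. The step from Wdr11 down to Prokr2 was 5.25 on the log2 RPKM scale in WT. Genes that act in many tissues (Chd7, Hs6st1, Nsmf, Wdr11) and the placode and forebrain factor Fezf1 were thus measured from 702 or more reads in both genotypes, and the hormone, its regulators and their receptors from 23.5 or fewer.

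**Figure D1:**
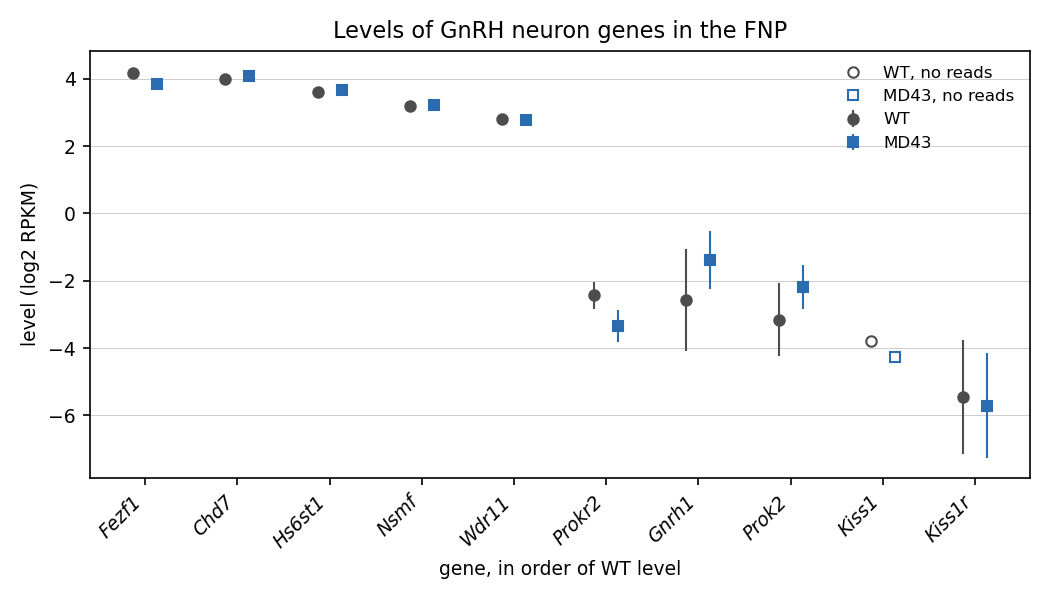
Level of each gene in log2 RPKM (vertical axis), with WT as circles and MD43 as squares; bars are 95% intervals from the smallest counting SE of the level, and open symbols mark Kiss1, which had no reads and is drawn at the value listed for it. Fezf1, Chd7, Hs6st1, Nsmf and Wdr11 lie between 2.77 and 4.18 in both genotypes, and all others lie below 0.

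The upstream sequences were examined because the 10 genes differ so widely in level. RefSeq start sites on GRCm38.p6 were at hand for 7 of the 10 genes, without Gnrh1, Chd7 and Nsmf. For Fezf1 and Kiss1 the RefSeq start lies 98 and 5337 bases inside the GENCODE gene, and their sequences are not printed. Over all 27025 genes with such a sequence, the 250 bases before the start site held a median of 6 CpG dinucleotides (the letters CG, read the same on both strands). The median was 16 for the 10969 genes with at least 10 reads (geometric mean) in WT or MD43 and 2 for the 8239 in the table that did not. Among the 7 genes the count was 37 for Hs6st1, 34 for Prok2, 20 for Kiss1r, 12 for Fezf1, 10 for Prokr2, 5 for Wdr11 and 2 for Kiss1. The CpG count did not sort these genes by level. Prok2, with few reads, had about as many CpGs as Hs6st1, and 3.36% of all genes had as many as Prok2. Wdr11, with 1183 reads in WT, had 5, and 55.5% of all genes had as many. These 4 sequences show that contrast among genes that were read deeply and genes that were not, with each CpG in capitals, 5′ to 3′ on the strand of the gene and ending just before the start site.
Hs6st1 (chr1:36068150-36068399, plus strand): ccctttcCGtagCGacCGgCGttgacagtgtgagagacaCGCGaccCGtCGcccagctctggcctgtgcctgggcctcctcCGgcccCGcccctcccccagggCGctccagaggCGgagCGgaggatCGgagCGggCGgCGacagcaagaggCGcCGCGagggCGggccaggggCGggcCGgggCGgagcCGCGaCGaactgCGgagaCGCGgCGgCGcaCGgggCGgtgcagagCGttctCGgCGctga
Wdr11 (chr7:129591613-129591862, plus strand): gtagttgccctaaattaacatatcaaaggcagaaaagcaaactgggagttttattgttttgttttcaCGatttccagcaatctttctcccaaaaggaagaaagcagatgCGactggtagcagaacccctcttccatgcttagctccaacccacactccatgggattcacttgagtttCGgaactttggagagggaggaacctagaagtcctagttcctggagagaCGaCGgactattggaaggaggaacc
Prok2 (chr6:99726393-99726642, minus strand): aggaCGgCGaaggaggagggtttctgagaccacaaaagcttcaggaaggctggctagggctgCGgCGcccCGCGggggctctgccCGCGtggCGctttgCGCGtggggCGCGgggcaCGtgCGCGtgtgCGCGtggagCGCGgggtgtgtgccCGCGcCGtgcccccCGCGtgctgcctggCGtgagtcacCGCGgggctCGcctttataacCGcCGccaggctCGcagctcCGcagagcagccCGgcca
Prokr2 (chr2:132385448-132385697, minus strand): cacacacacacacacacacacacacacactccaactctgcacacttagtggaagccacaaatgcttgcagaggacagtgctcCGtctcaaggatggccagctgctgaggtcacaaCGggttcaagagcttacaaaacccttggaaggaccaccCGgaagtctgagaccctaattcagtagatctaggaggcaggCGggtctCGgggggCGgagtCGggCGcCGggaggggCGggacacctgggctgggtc

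**Figure D2:**
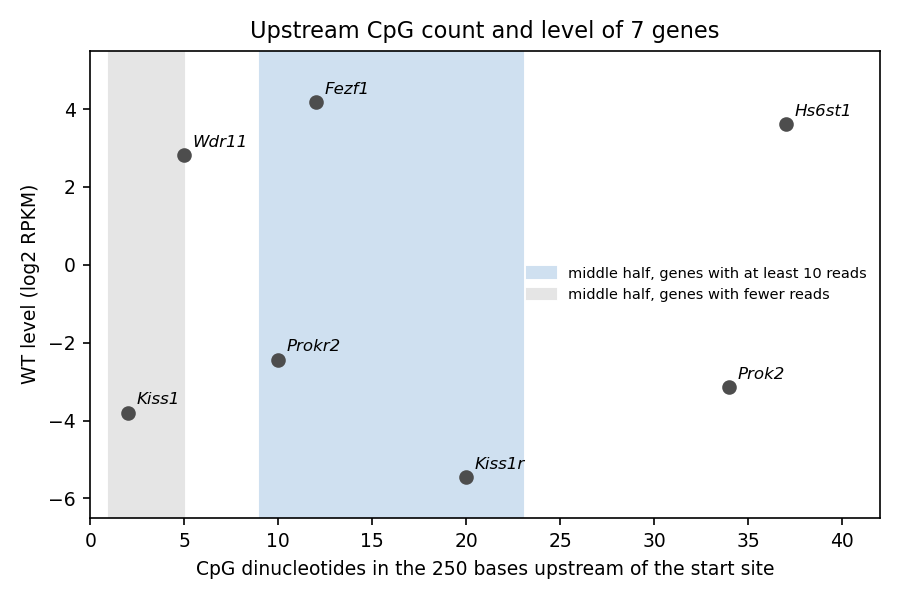
CpG dinucleotides in the 250 bases upstream of the RefSeq start site (horizontal axis) against the WT level in log2 RPKM (vertical axis) for the 7 genes with a sequence; shaded bands run from the lower to the upper quartile, 9 to 23 for genes that passed the filter of 10 reads and 1 to 5 for those that did not. Hs6st1 and Prok2 lie together on the right at opposite levels, and Wdr11 lies high at 5 CpGs.

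With this minimum of 10 reads required, 6 of the 10 genes could be compared and 4 (Gnrh1, Prok2, Kiss1r and Kiss1) could not. Of the 6, 3 were higher and 3 lower in MD43, with a median log2 difference of -0.01, beside 0.0057 over the 15377 genes of the table that passed the same filter. None of the 6 differed 2-fold, where 4.11% of those 15377 genes did. The difference was beyond counting error for 3 of the 6, with Fezf1 and Prokr2 lower and Chd7 higher. Over the whole filtered table this held for 50.4% (24.2% lower and 26.2% higher), so the count is near the background.

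**Figure D3:**
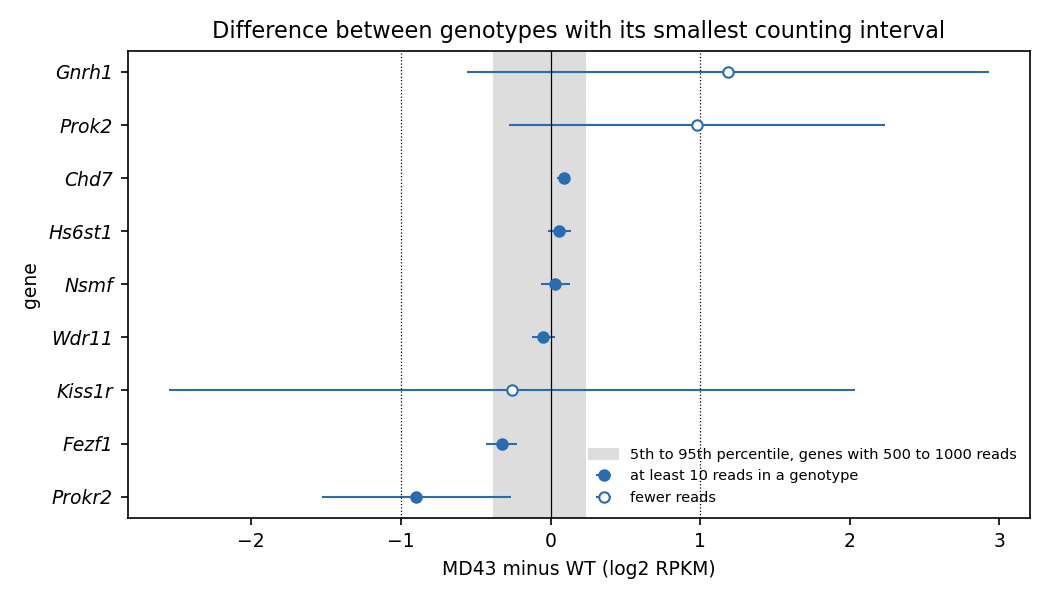
MD43 minus WT in log2 RPKM (horizontal axis) for the 9 genes with reads; bars are 95% intervals from the smallest counting SE, dotted lines mark 2-fold, and the grey band spans the 5th to 95th percentile of the 1323 genes with 500 to 1000 reads in both genotypes. Fezf1 (-0.33), Chd7 (0.09), Hs6st1 (0.06), Nsmf (0.03) and Wdr11 (-0.05) lie inside the band, and the bars of Gnrh1, Prok2 and Kiss1r cross 0. Only Fezf1 has 500 to 1000 reads in both genotypes, so the band is not the class of the other genes.

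Fezf1 encodes a zinc finger repressor of the olfactory epithelium and rostral forebrain, which olfactory axons need to enter the brain and GnRH neurons to follow them. Fezf1 (ENSMUSG00000029697, GRCm38 chromosome 6, 23245044 to 23248362, minus strand) was covered by 702 reads in WT and by 779 in the deeper MD43 libraries. Its level was 4.18 ± 0.04 log2 RPKM in WT and 3.86 ± 0.04 in MD43. The log2 difference was -0.33 ± 0.05, or 1.25-fold lower in MD43. It was the lowest difference among the 5 well-expressed genes. Genes with 500 to 1000 reads in both genotypes spanned -0.38 to 0.23 between their 5th and 95th percentiles, with an SD of 0.186 against a median counting SE of 0.055, and 52.3% of them were beyond counting error (34.8% lower). This class was set on reads not scaled to depth, and its median was -0.04, so it leans to lower values in MD43. The Fezf1 difference was larger than counting allows and inside the range of this class. It was below the 5th percentile of -0.27 of the genes with 500 to 6000 reads in both genotypes. Among the genes next to it, the unspliced transcript C130093G08Rik, 2770 bases from Fezf1 on the opposite strand, was at 4.79 log2 RPKM in WT and 4.20 in MD43, a difference of -0.59 ± 0.05. The nearest protein-coding genes, Cadps2 (0.07 ± 0.12) and Aass (-0.17 ± 0.12), were within counting error. These 3 neighbours were named after their values were seen.

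Marker lists of neighbouring tissues also differed between the genotypes. In a list of 10 diencephalon and hypothalamus genes, 9 passed the filter of 10 reads, all 9 were lower in MD43, and 7 were at least 2-fold lower, where 2.47% of the filtered genes were. Its summed level was 41.7 RPKM in WT and 21.2 in MD43, no marker was without reads, and single markers ranged from Barhl2 at -5.91 ± 0.50 to Six6 at -0.02 ± 0.10 on the log2 scale. Nkx2-1, a regulator of the hypothalamus with 635 reads in WT, was at -0.45 ± 0.06. In the 6 telencephalon genes the sum was 110 RPKM in WT and 130 in MD43, with 4 higher and 2 lower, among them Neurog2 at -1.06 ± 0.10 and Emx1 at 0.54 ± 0.08. All 7 surface ectoderm genes were higher in MD43, with a sum of 114 RPKM in WT and 180 in MD43 and Cldn6 at 0.87 ± 0.05. All 7 were higher beyond counting error, where 26.2% of the filtered genes were. Of those filtered genes 48.8% were lower in MD43 by any amount. The part of these markers in the Fezf1 difference was not tested. In a bulk sample, fewer cells of a type and less RNA per cell cannot be told apart.

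Chd7 encodes a chromatin remodelling ATPase whose loss of 1 copy in humans causes CHARGE syndrome, with olfactory and GnRH defects among its features. Chd7 (ENSMUSG00000041235, chromosome 4, 8690406 to 8867659, plus strand) was the most deeply read of the 10, from 3529 reads in WT and 5221 in MD43. Its log2 RPKM was 3.99 ± 0.02 in WT and 4.08 ± 0.01 in MD43, a difference of 0.09 ± 0.02. That was beyond counting error, as were 61.7% of the genes with 500 to 6000 reads in both genotypes (37.8% higher), and lay well inside their 5th to 95th percentile range of -0.27 to 0.28. Fezf1 and Chd7 exchanged places at the top of the order. Fezf1 was 0.19 ± 0.04 above Chd7 in WT and 0.23 ± 0.04 below it in MD43 on the log2 RPKM scale, both beyond counting error. Of the closest relatives of Chd7, Chd8 was higher in MD43 by 0.12 ± 0.02, Chd6 was at -0.10 ± 0.03 and Chd9 at -0.04 ± 0.04. Chd6 and Chd9 were named after their values were seen.

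Hs6st1, Nsmf and Wdr11 had nearly the same level in both genotypes, and none of their differences was beyond counting error. Hs6st1 (ENSMUSG00000045216, chromosome 1, 36068400 to 36106446, plus strand) adds sulfate groups to heparan sulfate, the sugar chain that FGFs and anosmin bind at the cell surface. It was at 3.61 log2 RPKM in WT and 3.67 in MD43, from 1085 and 1572 reads, a difference of 0.06 ± 0.04. Its exons share 447 bases with the antisense gene Gm37335 (133 reads in WT, 181 in MD43), and whether the authors counted by strand is not stated, so reads there may be shared. Nsmf (ENSMUSG00000006476, chromosome 2, 25054355 to 25062881, plus strand) encodes a protein that carries signals from NMDA receptors to the nucleus and was first linked to the outgrowth of olfactory axons and migration of GnRH neurons. It was at 3.19 log2 RPKM in WT and 3.23 in MD43, a difference of 0.03 ± 0.05 with a 95% counting interval of -0.07 to 0.13. Wdr11 (ENSMUSG00000042055, chromosome 7, 129591863 to 129635738, plus strand) encodes a WD-repeat protein of vesicle traffic at the Golgi. It was at 2.82 log2 RPKM in WT and 2.77 in MD43, a difference of -0.05 ± 0.04. The 95% counting intervals of the 3 genes together spanned -0.13 to 0.14. The order Hs6st1, Nsmf, Wdr11 was the same in both genotypes, and each step, from 0.38 to 0.46 on the log2 RPKM scale, exceeded counting error.

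The receptor and ligand of the prokineticin pathway, which olfactory bulb and GnRH neuron development both need, were scarce. Prokr2 (ENSMUSG00000050558, chromosome 2, 132337733 to 132385447, minus strand), the receptor, was read 23.5 times in WT and 17.5 times in MD43. Its level was -2.44 ± 0.21 log2 RPKM in WT and -3.33 ± 0.24 in MD43, a difference of -0.90 ± 0.32, or 1.86-fold lower in MD43. The products of the 2 libraries were 552 in WT and 308 in MD43. In WT, 23 and 24 or 12 and 46 reads are the splits in which the libraries differ by less than 4-fold, and in MD43 they are 14 and 22 or 11 and 28. The difference was beyond counting error in each of the 4 combinations of these, and in 16 of the 48 combinations of all splits. Over all splits the ratio of the MD43 to the WT total, scaled to depth, ran from 0.0468 (36 against 553 reads) to 4.73 (309 against 47), so the direction of the totals is not fixed by the products. With a pseudocount of 1 RPKM the log2 difference was -0.11. Genes with 10 to 50 reads in both genotypes ranged from -1.04 to 0.64 between their 5th and 95th percentiles, and Prokr2 was inside this range. Of these genes 25.6% were beyond counting error (20% lower). This class too was set on reads not scaled to depth, and its median of -0.19 leans to lower values in MD43.

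Prok2 (ENSMUSG00000030069, chromosome 6, 99711299 to 99726392, minus strand), the ligand, did not reach the minimum of 10 reads, with 3.46 in WT against 9.49 in MD43. The product was 12 in WT and 90 in MD43. The totals of the 2 WT libraries that give this product are 7, 8 and 13 reads, and those of MD43 run from 19 to 100. Scaled to depth, the ratio of the MD43 to the WT total ran from 1.05 at 19 and 13 reads, with an exact (Clopper-Pearson) 95% counting interval of 0.492 to 2.32, up to 10.3 at 100 and 7 reads, with an interval of 4.81 to 26.2. The larger ratios need very unequal MD43 libraries, and the table does not tell which totals are the true ones. The listed log2 difference was 0.98 ± 0.64. With 0.64 as the smallest SE possible, that difference was bound to be within counting error wherever every library holds a read. This covers 18 combinations of splits, leaves out the MD43 split of 0 and 100, and is no separate check. Of their relatives, the receptor Prokr1 was higher in MD43, with 35.9 reads in WT and 84.7 in MD43 and a log2 difference of 0.76 ± 0.20, while Prok1, a second ligand named after its values were seen, had 0 and 2 reads in the MD43 libraries and 7 or 11 reads in all in WT.

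Gnrh1 (ENSMUSG00000015812, chromosome 14, 67745181 to 67749439, plus strand) encodes the precursor of the hormone itself and defines the neurons. It was detected in both genotypes, at -2.57 ± 0.78 log2 RPKM in WT and -1.39 ± 0.44 in MD43. The WT product of 3 fixes the counts at 1 read in one library and 3 in the other. The MD43 product of 30 allows 5 and 6, 3 and 10, 2 and 15, or 1 and 30 reads. Both MD43 libraries therefore held at least 1 read, and which embryo gave which count cannot be told. Scaled to depth, the MD43 total was 1.98-fold that of WT if the counts were 5 and 6 (exact 95% counting interval 0.586 to 8.51) and 5.57-fold if they were 1 and 30 (1.97 to 21.7). The listed log2 difference of 1.19 ± 0.89 was the only one of the 10 past 2-fold, where 10.1% of the 20794 genes with any read were (3.08% higher). It was 0.39 with counts of at most 3 reads set to 3, and 0.24 with a pseudocount of 1 RPKM, so it passed 2-fold in neither. At a level this low both settings were bound to shrink the difference, so they are no separate check. It rests on too few reads to be called. The protein-coding neighbours lie within 3 kb and were read far more deeply, with Kctd9 at -0.25 ± 0.07 and Dock5 at 0.07 ± 0.08, and neither shares exon bases with Gnrh1.

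Kisspeptin and its receptor drive GnRH neurons at puberty. Kiss1 (ENSMUSG00000116158, chromosome 1, 133321875 to 133329901, plus strand), the ligand, had 0 reads in all 4 libraries, which allows a level of up to 0.240 RPKM in a WT library and 0.172 in an MD43 library of the mean depth. All of its 779 exon bases are shared with the readthrough gene Gm28040, and 102 are shared with Golt1a on the same strand. Its listed values of -3.80 in WT and -4.27 in MD43 are those the table gives any gene of its length without reads. Kiss1r (ENSMUSG00000035773, chromosome 10, 79916971 to 79922273, plus strand), the receptor, had 1 and 2 reads in the WT libraries and 0 and 3 in the MD43 libraries. The totals of 3 and 3 reads give a ratio of 0.719 of MD43 to WT after scaling, with an exact 95% counting interval of 0.0963 to 5.37. Kiss1r shares 247 exon bases with R3hdm4 on the other strand, which had 1110 reads in WT and 1461 in MD43.

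The order of the 4 scarce genes with reads was resolved in part at the smallest SE possible. Unequal splits of the counts give a larger SE, and with some of them, such as 1 and 90 reads for Prok2 in MD43, a call is lost. The MD43 level of Kiss1r includes a library without reads, which stands for 0.9 reads. In WT, 3 of the 6 pairs differed beyond counting error. Prokr2 (3.02 ± 0.88), Gnrh1 (2.88 ± 1.16) and Prok2 (2.30 ± 1.02) were above Kiss1r on the log2 RPKM scale, and the first 3 could not be ordered among themselves. In MD43, 5 of the 6 pairs did. Gnrh1 was 1.94 ± 0.50 and Prok2 1.16 ± 0.41 above Prokr2, Prokr2 was 2.38 ± 0.83 above Kiss1r, and Gnrh1 and Prok2 could not be ordered. Kiss1, without reads, has no place in this order.

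Other human genes of Kallmann syndrome and hypogonadotropic hypogonadism were examined in their mouse counterparts. Of 37 listed autosomal genes, 33 passed the filter of 10 reads, with 16 higher and 17 lower in MD43 and a median log2 difference of -0.01. At least 2-fold differences were seen in 3 of the 33, 2 of them higher and 1 lower, beside 1.64% higher and 2.47% lower over the filtered table. Those 3 were Amh (anti-Müllerian hormone), Hesx1 (a repressor of the anterior neural plate and pituitary) and Sox10 (a factor of neural crest and olfactory ensheathing cells), named after their values were seen. Amh had 0 and 2 reads in the WT libraries and a product of 176 in MD43, and Hesx1 had 0 and 6 in WT and either 5 and 31 or 1 and 155 in MD43. Sox10 was lower in MD43, with 6.25 reads against 10.8 in WT and a log2 difference of -1.27 ± 0.51, but the splits allow a ratio of MD43 to WT totals from 0.0885 to 1.31. All 3 passed the filter through 1 genotype alone, with at most 13.3 reads there.

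Among genes of the list with at least 50 reads, the largest differences were those of Dcc, Fgf17 and Flrt3, all lower in MD43. Dcc, the netrin receptor that guides GnRH cell and axon migration, was at 0.91 log2 RPKM in WT and -0.06 in MD43, a difference of -0.96 ± 0.08. Fgf17, an FGF ligand of the rostral forebrain, was at 4.22 in WT and 3.58 in MD43, a difference of -0.64 ± 0.07. Flrt3, a transmembrane partner of FGF receptors, was at 3.66 in WT and 3.14 in MD43, a difference of -0.52 ± 0.05. Fgf8, the ligand needed for GnRH neurons to form, was at -0.34 ± 0.07 from 375 and 413 reads, while its receptor Fgfr1 was at 0.05 ± 0.03. These 2 genes were also named after their values were seen. Of the 33 filtered genes of the list, 7 were higher and 11 lower beyond counting error. Over all filtered genes 26.2% were higher and 24.2% lower by this measure. Tubb3, a tubulin of young neurons with the highest mean log2 RPKM of the list over both genotypes, was at 6.28 log2 RPKM in WT and 6.30 in MD43, a difference of 0.02 ± 0.03.

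**Figure D4:**
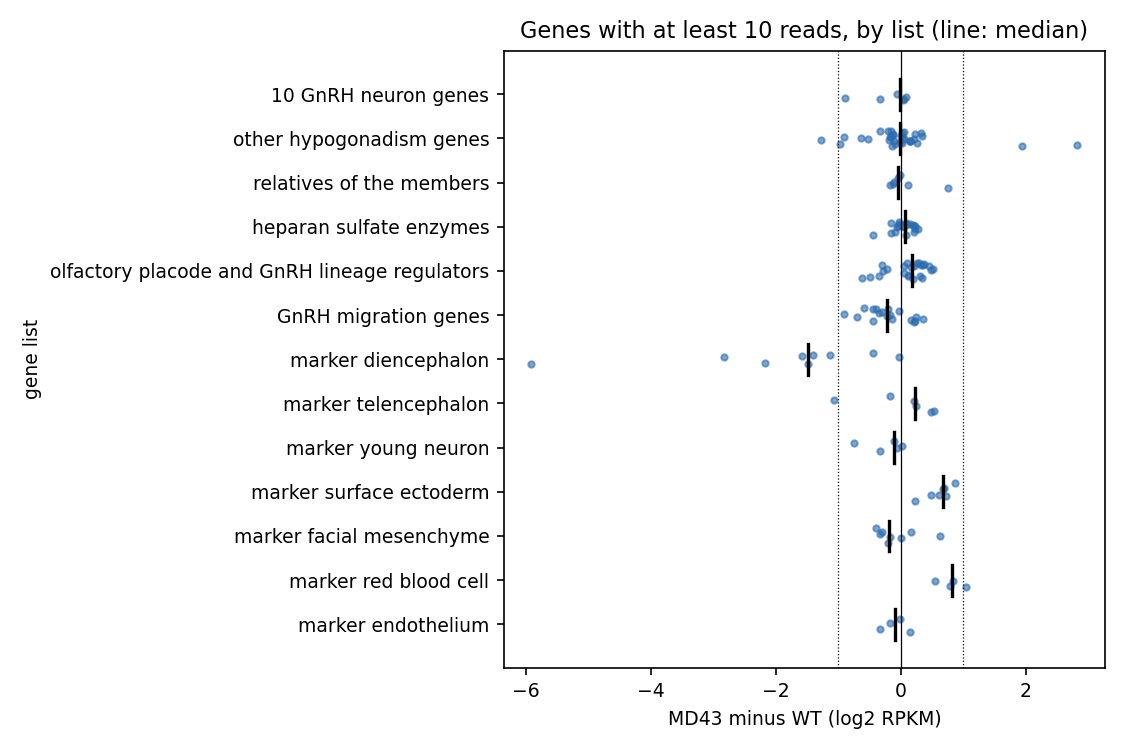
MD43 minus WT in log2 RPKM (horizontal axis) for genes that passed the filter of 10 reads, by list (vertical axis), with 1 point per gene, a black line at each median and dotted lines at 2-fold. The 10 GnRH neuron genes and the other hypogonadism genes have medians of -0.01, diencephalon markers lie to the left with a median of -1.48, and surface ectoderm markers lie to the right with a median of 0.68.

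The programmes around the 10 genes differed by small amounts. In the list of 24 transcription factors of the olfactory placode and GnRH lineage, all had at least 10 reads, 18 were higher and 6 lower in MD43, and none differed 2-fold, with a median of 0.18 on the log2 scale. Among all filtered genes 48.8% were lower and 4.11% differed 2-fold. Dlx5, a homeobox factor that the olfactory placode needs, was at 0.52 ± 0.10, and Lhx2, a LIM homeobox factor of olfactory neurons and forebrain, at 0.49 ± 0.02. Otx2, a homeobox factor of the anterior head and GnRH neurons, was at -0.62 ± 0.03, and Nhlh2, a helix-loop-helix factor of GnRH neurons, at -0.49 ± 0.10. Lhx2 was also the most abundant of the list, at 5.21 log2 RPKM in WT and 5.70 in MD43. The list therefore held differences beyond counting error in both directions, 13 higher and 6 lower, where 26.2% of the filtered genes were higher and 24.2% lower by this measure.

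Of 19 genes of GnRH neuron migration, 18 had at least 10 reads, with 5 higher and 13 lower in MD43, a median of -0.21 and none past 2-fold. Among all filtered genes 48.8% were lower and 4.11% differed 2-fold. Beyond counting error 5 of the migration genes were higher and 8 lower, where 26.2% of the filtered genes were higher and 24.2% lower. Gas6, a ligand that protects migrating GnRH neurons, was at -0.91 ± 0.15, Robo3, a receptor of the Robo family, at -0.70 ± 0.17, and Cntn2, an axonal adhesion molecule on the path of migration, at -0.59 ± 0.15. Plxnb1, a semaphorin receptor and the most abundant, was at 0.17 ± 0.02. The 5 young neuron genes had a median of -0.10, with Tubb3 as above, Nefl at -0.74 ± 0.13 and Stmn2 at -0.32 ± 0.06, and their summed level was 96.7 RPKM in WT and 95.1 in MD43. The part of neuron content in the values of the migration genes was not tested.

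Heparan sulfate enzymes, which act with Hs6st1, were nearly level. Of 24 listed, 20 had at least 10 reads, with 12 higher and 8 lower, a median of 0.07 and none past 2-fold. The shares over the filtered table were 48.8% lower and 4.11% past 2-fold. Ndst1, the sulfotransferase that opens the modification of the chain, was at 0.28 ± 0.03, B3galt6, a galactosyltransferase of the linker to the core protein, at 0.23 ± 0.09 and Extl3, an exostosin-like glycosyltransferase, at 0.23 ± 0.03, while Sulf2, the most abundant, was at 0.22 ± 0.03. Hs6st3, a close relative of Hs6st1, had 0.949 reads in WT and 1.41 in MD43, against 1085 and 1572 for Hs6st1, and was named after its values were seen. Among the 7 relatives and partners of the 10 genes with at least 10 reads, 2 were higher and 5 lower in MD43, with a median of -0.04. Fezf2, the paralogue of Fezf1 in the forebrain, was at -0.17 ± 0.05 from 785 reads in WT and 973 in MD43, and Fam91a1, a partner of the WDR11 protein, was at 4.42 log2 RPKM in both genotypes.

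Lists of other tissues in the piece are given for reference. The 8 facial mesenchyme genes, the defining genes of the FNP, were all read and summed to 153 RPKM in WT and 150 in MD43, with 3 higher and 5 lower (Twist1 at -0.39 ± 0.05). Of the 4 red blood cell genes in the table all were higher in MD43, with a sum of 3055 RPKM in WT and 5807 in MD43. Of all filtered genes 48.8% were lower in MD43. The 4 endothelial genes summed to 6.83 RPKM in WT and 6.35 in MD43.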

How the data were processed

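RNA was sequenced from the FNP of 2 WT and 2 MD43 embryos with stranded poly(A) libraries. The authors trimmed reads with Trim Galore 0.4.4, mapped them with HISAT2 2.0.5 to GRCm38.p6, per the labels, and quantified them in SeqMonk. The deposited values are log2 RPKM for autosomal genes, 1 column per genotype, which the authors scaled by library size and transcript length. The columns of FDR, fold change and mean hold the authors' own comparison and were not used. Whether counting used strand is not given in the sources used here.

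Symbols and coordinates matched GENCODE M21 (GRCm38) for 33101 of 33708 rows. Genes without reads share 1 log2 difference (-0.4758, 12862 rows), in which a library without reads stands for 0.9 reads. Scaled on it, 99.9% of the products of the 2 libraries' counts under 1000 came out whole, allowing for libraries without reads (tolerance 0.02), in both genotypes. Where a product of 10000 to 200000 had 1 split under 4-fold, the median ratio of deeper to shallower library was 1.51 in MD43 and 1.46 in WT. The recovery was tested on simulated data.

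The tests planned for values per library could not be run on 1 value per genotype, so no p-value is given. Intervals cover counting error only. The 10 genes and the other 12 lists were chosen with earlier results of these data known. Named were the 10 genes, Smchd1, genes whose exons overlap one of the 10, the nearest protein-coding genes of one past 2-fold and, per list, the most abundant gene and up to 3 with the largest difference at 50 reads or more. Genes named after their values were seen were C130093G08Rik, Aass, Cadps2, Six6, Chd6, Chd9, Prok1, Hs6st3, Fgf8, Fgfr1, Amh, Hesx1 and Sox10. Python 3.11.15, numpy 2.4.6, pandas 2.3.3 and scipy 1.17.1 were used.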

Additional observations from a re-analysis of the deposited data

How the results depend on the processing

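No paired analysis was possible because each genotype has 1 merged value, and for the same reason leaving out a replicate and count tests were not run. Whether 1 embryo decides a value is unknown. With all genes that had a read, 1 of the 10 genes (Gnrh1) passed 2-fold in place of 0, since the filter no longer removed it. With a pseudocount of 1 RPKM the diencephalon median was -0.64 and Prokr2 was at -0.11. With the GC content and length correction, which accounted for 1.39% of the variance, the red blood cell median was 0.78. Adding the same pseudocount to both genotypes shrinks every difference by arithmetic, most of all at levels below it, such as those of Prokr2. The cause of the shift with the GC content and length correction was not tested. The other 111 of 114 alternatives for counts and list medians and 53 of 54 for single genes kept the value within its counting interval or the count within a like size. Under the same correction Nsmf (-0.00065) and Wdr11 (0.0097) changed sign within that interval. The median of the 10 genes ranged from -0.02 to 0.03, and the medians of the other hypogonadism genes and of the relatives crossed 0 as well. Fezf1 ranged from -0.34 to -0.31 and Gnrh1 from 0.24 to 1.19. With a wider counting interval or after centring, 3 genes were still beyond it. Depth limits Gnrh1, Prok2, Kiss1 and Kiss1r.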
